A study of Mus musculus with 6 samples.

Results

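The genes that write, copy and remove DNA methylation were followed in adult mouse small-intestinal organoids in which a constitutively active human YAP was switched on. The set was defined by symbol and held 9 genes (Dnmt1, Dnmt3a, Dnmt3b, Uhrf1, Uhrf2, Tet1, Tet2, Tet3 and Hells), all of which were found among the 24594 Entrez gene IDs of the count table and all of which passed the expression filter. The doxycycline group comprised 3 RNA-seq libraries of TetON-hYAP/H2B-mCherry epithelial organoids from the proximal small intestine, given doxycycline at 1 µg/ml for 48 h from passaging. The control group comprised 3 libraries of organoids of the same genotype without doxycycline. Both groups thus carry the transgene, which encodes human YAP and a red fluorescent histone. The labels do not name the promoter that drives the doxycycline-dependent activator. Organoids lacking the transgene but given the drug were not among the libraries, and what doxycycline itself does and what YAP does cannot be told apart. Per the labels' protocols, adult crypts came from 1 animal for each sample. Whether the 3 libraries of a group came from separate animals or from separate cultures of 1 organoid line is not stated, so p-values measure the spread between these libraries.

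In mammals, methyl groups on cytosines of CpG dinucleotides are copied to the new DNA strand after replication by DNMT1. UHRF1 binds hemimethylated DNA at the replication fork and recruits DNMT1, and HELLS is a chromatin remodelling ATPase that gives the machinery access to nucleosomal DNA. DNMT3A and DNMT3B methylate unmodified sites, and the TET dioxygenases oxidise methylcytosine as the first step of its removal. In the mouse intestine Dnmt1 is known as a gene of the dividing crypt, and Tet1 as a gene that sustains Lgr5-positive stem cells.

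With doxycycline, the replication-coupled genes Uhrf1, Hells and Dnmt1 fell to between 13.3 and 24.1% of their control level by the fitted change, Dnmt3b fell to 37.4%, and Tet1 was nearly undetected. Uhrf2 fell to 63.2%. Dnmt3a, Tet2 and Tet3 did not pass the threshold of an adjusted p under 0.05 (edgeR quasi-likelihood test). Of the 9 genes, 6 fell and 0 rose, and Tet1 among the 6 passed the expression filter through its control libraries only. Over all 12909 genes tested, 45.3% were called in either direction, 23.6% lower and 21.7% higher. For 6 of the 9 genes every doxycycline library was below every control library in CPM. Groups were separated in this way, in either direction, in 61.3% of all genes tested. The median log2 fold change of the 9 genes was -1.42, beside -0.08 over all genes.

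DNA sequences near the annotated starts are shown because Dnmt1, Uhrf1 and Hells were the genes of the set whose promoter windows held the core letters bound by E2F factors, the regulators of S phase transcription. Windows were the 250 bases before each start in RefSeq's promoter table (GRCm38.p6), which had 14 windows for the 9 genes. The letters searched were TTTCCCGC, TTTGGCGC, TTTCGCGC and TTTGCCGC on both strands. Each of the 3 genes had 1 match, and the other 6 genes had none. Over all 27025 genes with a window, 2.16% had a match in at least 1 window, and the share was 3.89% over the 10267 of them that were tested. The matches are shown with 11 flanking bases on each side, 5′ to 3′ on the gene's strand, with the matched letters in capitals.
Dnmt1: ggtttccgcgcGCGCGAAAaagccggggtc
Uhrf1: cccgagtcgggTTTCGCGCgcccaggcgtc
Hells: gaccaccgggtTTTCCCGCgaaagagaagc
They lie at chr9:20952824-20952853 (minus strand), chr17:56304117-56304146 (plus strand) and chr19:38930917-38930946 (plus strand). The first matched base was 219 bases before an annotated start of Dnmt1, 185 before one of Uhrf1 and 62 before that of Hells. The Dnmt1 and Uhrf1 matches are the same 8 letters read on opposite strands, since GCGCGAAA is the reverse complement of TTTCGCGC. Dnmt1 has 3 annotated windows and Uhrf1 has 2, and the match was in 1 of them for each gene. Of the 250 bases of the window with the match, 166 lay in annotated exons for Dnmt1, 75 for Hells and 0 for Uhrf1.

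The whole window of Uhrf1 that held the match is given below beside that of Tet3, the most abundant TET gene, whose level was not called as changed. Capitals mark the E2F letters and the CCAAT box (CCAAT or ATTGG), which do not overlap each other in these windows.
Uhrf1: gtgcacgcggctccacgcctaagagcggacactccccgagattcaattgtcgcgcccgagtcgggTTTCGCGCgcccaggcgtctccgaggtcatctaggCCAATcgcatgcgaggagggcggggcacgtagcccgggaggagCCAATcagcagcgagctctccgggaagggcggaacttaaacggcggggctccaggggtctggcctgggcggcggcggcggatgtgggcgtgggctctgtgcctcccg
Tet3: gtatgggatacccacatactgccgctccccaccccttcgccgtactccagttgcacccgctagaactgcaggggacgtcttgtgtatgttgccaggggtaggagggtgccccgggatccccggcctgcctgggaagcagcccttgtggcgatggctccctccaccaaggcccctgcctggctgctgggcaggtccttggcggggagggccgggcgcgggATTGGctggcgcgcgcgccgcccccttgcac
The Uhrf1 window (chr17:56304063-56304312, plus strand) held 30 CpG dinucleotides and the Tet3 window (chr6:83441679-83441928, minus strand) held 17, where the median was 6 over all promoters and 16 over those of tested genes. The Tet3 window lies partly in the annotated span of the lncRNA B230319C09Rik. A CCAAT box was present in a window of 3 of the 9 genes (Dnmt1, Uhrf1 and Tet3), against 37.5% of all genes. The letters GGAATG, the core bound by TEAD factors, the DNA-binding partners of YAP, occurred in a window of 1 of the 9 genes (Uhrf1, in its other window), against 14.4% of all genes. These matches describe letters in the windows and do not show binding.

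The libraries held 11258768 to 16803062 counts with doxycycline and 8533452 to 14643817 in the controls. Values are CPM scaled by TMM factors of 0.843 to 0.879 with doxycycline and 1.163 to 1.169 in controls. Scaling by total counts alone moved the median change over all genes to -0.53 on the log2 scale, and every direction given here is on the TMM scale. Control replicate 3 stood apart, with a correlation of log2 CPM over genes of 0.916 and 0.919 with the other controls, which had 0.991 with each other. In that library, log2 CPM of the 324 tested genes with at least 15 kb of exon sequence had a median of 0.71 below the other controls (median difference -0.71), while the 3758 genes under 3 kb had a median difference of 0.51. Dnmt3a, Tet1, Tet2 and Tet3, with 15.5 to 16.9 kb of exon, are among the long genes. The 10 epithelial markers summed to 19340 to 20560 CPM with doxycycline and 5636 to 6316 CPM in controls, mostly from the keratins Krt8, Krt18 and Krt19. Of these 10, 6 rose, Cdx1 fell (16.5 ± 0.910 CPM with doxycycline and 292.6 ± 60.1 CPM in controls, log2 change -4.14, edgeR adjusted p = 5.36e-05), and Epcam, Cdx2 and Elf3 were not called. Among all genes tested, 21.7% were called higher and 23.6% lower. The 10 mesenchymal markers summed to 0.565 to 0.925 CPM with doxycycline and 0.154 to 1.01 CPM in controls, with Col1a1, Dcn, Lum and Thy1 at 0 counts in every library. The 10 immune markers summed to 30.3 to 32.5 CPM with doxycycline and 22.9 to 45.8 CPM in controls, most of it in Csf1r, with Ptprc at 2 counts over the doxycycline libraries and 0 over the controls. The 10 endothelial markers summed to 3.98 to 4.25 CPM with doxycycline and 2.62 to 5.13 CPM in controls, with Kdr at 0 counts.

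**Figure D1:**
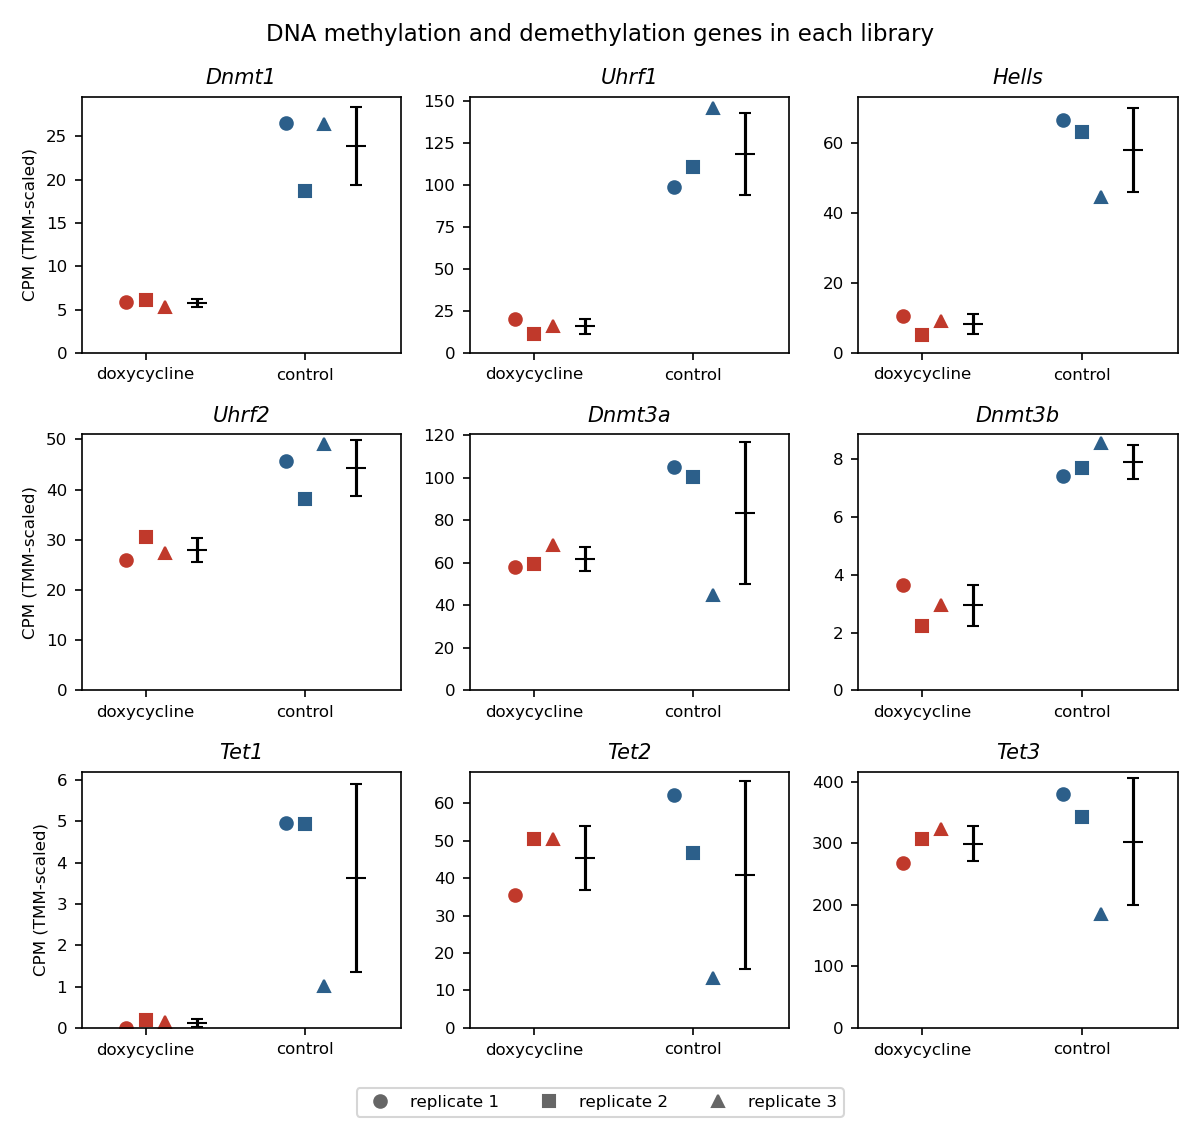
Level of each of the 9 genes in each library, in TMM-scaled CPM on linear axes that start at 0, with doxycycline left and control right; marker shapes give the replicate number and the black bars the mean ± SD of 3 libraries. The groups do not overlap for Dnmt1, Uhrf1, Hells, Uhrf2, Dnmt3b and Tet1, while control replicate 3 (triangle) lies below all 3 doxycycline libraries for Dnmt3a, Tet2 and Tet3.

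Maintenance of methylation after replication was represented by Dnmt1, Uhrf1 and Hells, with Uhrf2 as the paralog of Uhrf1. Dnmt1 (Entrez 13433, chromosome 9, 20907206 to 20959888, GRCm38.p6) encodes the maintenance methyltransferase. It had 5.87, 6.11 and 5.30 CPM in the doxycycline libraries, against 26.6, 18.7 and 26.5 CPM in the control libraries. Every doxycycline library was thus below every control, and the 3 doxycycline values were close together. The means were 5.76 ± 0.414 CPM with doxycycline and 23.9 ± 4.53 CPM in controls (SD, n = 3 each), a log2 fold change of -2.06 (SE 0.221, edgeR adjusted p = 5.21e-04). These libraries are of bulk RNA, in which fewer cells of a type and less RNA per cell cannot be told apart.

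Uhrf1 (Entrez 18140, chromosome 17, 56303337 to 56323486) encodes the reader of hemimethylated CpG. Its level was 20.0, 11.2 and 16.0 CPM with doxycycline, against 98.6, 110.5 and 145.8 CPM without. The highest doxycycline library was far below the lowest control, with a coefficient of variation of 28.1% with doxycycline and 20.8% in controls. By edgeR its log2 change was -2.91, with an SE of 0.275 (adjusted p = 3.48e-04), which made Uhrf1 the 389th lowest of the 12909 fitted changes.

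Hells (Entrez 15201, chromosome 19, 38930262 to 38970470), which encodes the chromatin remodeller, had 10.6, 5.09 and 9.19 CPM with doxycycline, against 66.8, 63.2 and 44.5 CPM in controls. The groups were well separated, and within each group 1 library was lower than the others, doxycycline replicate 2 and control replicate 3. It fell by 2.81 on the log2 scale (SE 0.317, edgeR adjusted p = 6.81e-04). For Dnmt1, Uhrf1 and Hells the call held in each of the 14 alternative fits, with log2 fold changes of -2.50 to -1.97, -3.35 to -2.71 and -3.25 to -2.55 over those fits.

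Uhrf2 (Entrez 109113, chromosome 19, 30030430 to 30093726) encodes a paralog of UHRF1 that is not known to replace it in maintenance in mouse cells. It had 26.0, 30.5 and 27.4 CPM with doxycycline, against 45.7, 38.2 and 49.0 CPM in controls. The groups did not overlap, but the gap between them was small. It fell by 0.66 on the log2 scale (SE 0.167, edgeR adjusted p = 0.0162). Uhrf2 no longer passed when control replicate 1 was left out (adjusted p = 0.0529), nor when doxycycline replicate 1 (0.0745), 2 (0.0508) or 3 (0.0796) was. In each of those 4 fits 5 of the 9 genes were called, all lower. The background over all genes was then 39.3% called and 20.5% called lower without control replicate 1, 31.8% and 15.7% without doxycycline replicate 1, 29.2% and 14.3% without doxycycline replicate 2, and 29.1% and 14.3% without doxycycline replicate 3.

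The de novo enzymes differed from each other. Dnmt3b (Entrez 13436, chromosome 2, 153649411 to 153687730) had 3.64, 2.22 and 2.97 CPM with doxycycline, against 7.43, 7.70 and 8.56 CPM in controls. It was a low gene in all libraries, with 102 counts over the doxycycline libraries and 312 over the controls, yet its groups did not overlap. Dnmt3b fell by 1.42 on the log2 scale (SE 0.263, edgeR adjusted p = 0.00469), and the call held in each of the 14 alternative fits.

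Dnmt3a (Entrez 13435, chromosome 12, 3801559 to 3914443) had 57.9, 59.3 and 68.4 CPM with doxycycline, against 105.2, 100.1 and 44.8 CPM in controls. Control replicates 1 and 2 were above all doxycycline libraries and control replicate 3 was below them all. The change of -0.43 on the log2 scale (SE 0.320, 95% interval -1.06 to 0.20) did not pass (edgeR adjusted p = 0.308). Without control replicate 3, Dnmt3a fell by 0.71 on the log2 scale (SE 0.0903, edgeR adjusted p = 8.32e-07). With a trend against exon length removed from each library, an alternative added after the data were seen, it fell by 0.60 (adjusted p = 0.0297).

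Among the TET genes, Tet1 had the greatest difference at the lowest level. Tet1 (Entrez 52463, chromosome 10, 62804570 to 62887469) had 0, 0.185 and 0.141 CPM with doxycycline, against 4.97, 4.93 and 1.01 CPM in controls. That is 4 counts over the doxycycline libraries (0, 2 and 2) and 159 over the controls (85, 64 and 10), so control replicate 3 again held the lowest control value. After scaling, the control level was 34.6 times that with doxycycline (95% exact binomial interval 13.25 to 128.6, counting error only). The fitted change was -4.90 on the log2 scale (SE 0.908, edgeR adjusted p = 0.00499), a size that depends on the prior count at such low counts. The call held in each of the 14 alternative fits, and without control replicate 3 the count ratio was 43.1. Only the control libraries brought Tet1 past the expression filter, so its place among the tested genes was not independent of its fall.

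Tet2 (Entrez 214133, chromosome 3, 133463677 to 133545136) had 35.5, 50.3 and 50.3 CPM with doxycycline, against 62.3, 46.7 and 13.3 CPM in controls. The controls spanned the doxycycline values, and control replicate 3 was the lowest of the 6 libraries. The change was 0.15 on the log2 scale (SE 0.502, 95% interval -0.83 to 1.13, adjusted p = 0.829), and it was -0.25 (adjusted p = 0.185) without control replicate 3. The interval with all libraries leaves room for a change in either direction.

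Tet3 (Entrez 194388, chromosome 6, 83362373 to 83457208) was the TET gene with the most reads, at 267.9, 306.6 and 323.3 CPM with doxycycline, against 379.6, 342.8 and 185.0 CPM in controls. As for Dnmt3a, control replicates 1 and 2 were above and control replicate 3 below all doxycycline libraries. The change was -0.02 on the log2 scale (SE 0.278, 95% interval -0.56 to 0.53, edgeR adjusted p = 0.969). Without control replicate 3 it fell by 0.26 (SE 0.0824, adjusted p = 0.00938), and with the length trend removed the change was -0.20 (adjusted p = 0.286). In all, 8 of the 9 genes were called lower without control replicate 3, where 69.9% of all genes tested were called, 35.1% lower and 34.9% higher. With the length trend removed 7 of 9 were called lower, where 48.7% of all genes were called and 24.9% were called lower.

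**Figure D2:**
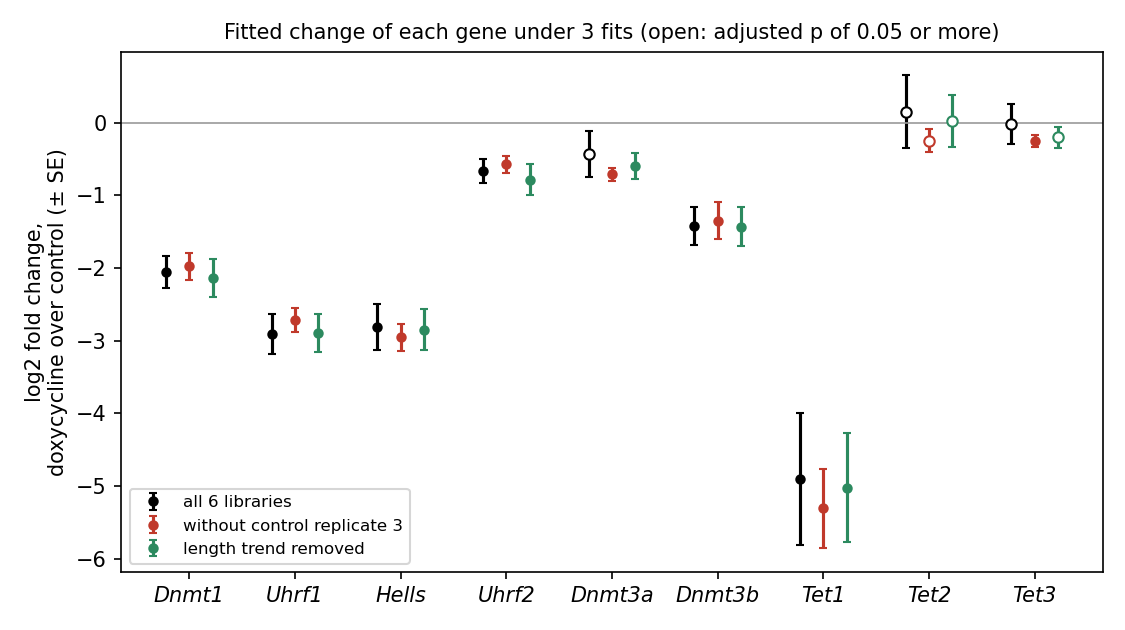
Fitted log2 fold change, doxycycline over control, with its SE for each gene with all 6 libraries (black), without control replicate 3 (red) and with a trend against exon length removed (green); open symbols did not pass an adjusted p of 0.05. Dnmt1, Uhrf1, Hells, Dnmt3b and Tet1 hold nearly the same place in the 3 fits, while Dnmt3a is open with all libraries and filled in the other fits, and Tet3 is filled only without control replicate 3.

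Levels were compared between genes per kb of exon, as TMM-scaled CPM divided by the union exon length in GENCODE M21. This length counts the exons of every annotated transcript and understates genes with many alternative exons. With doxycycline Tet3 was highest at 17.9 ± 1.70 CPM per kb, followed by Dnmt3a (3.72 ± 0.342), Uhrf1 (3.70 ± 1.04), Uhrf2 (3.26 ± 0.271), Tet2 (2.69 ± 0.508), Hells (1.15 ± 0.398), Dnmt1 (0.780 ± 0.0561), Dnmt3b (0.576 ± 0.139) and Tet1 (0.00704 ± 0.00626; SD, n = 3). In controls Uhrf1 was highest at 27.8 ± 5.77 CPM per kb, followed by Tet3 (18.1 ± 6.19), Hells (8.07 ± 1.66), Uhrf2 (5.16 ± 0.647), Dnmt3a (5.01 ± 2.01), Dnmt1 (3.24 ± 0.613), Tet2 (2.42 ± 1.48), Dnmt3b (1.55 ± 0.115) and Tet1 (0.235 ± 0.147). The libraries of neighbouring genes overlapped from Dnmt3a to Uhrf2 and between Hells and Dnmt1 with doxycycline, and from Uhrf2 down to Dnmt3b in controls. Those neighbours are not ordered beyond their spread.

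Within each family the composition was read as shares of counts per kb, which do not depend on the library scaling. Uhrf1 made up 60.8, 42.5 and 54.1% of the pair Uhrf1 and Uhrf2 with doxycycline, against 81.3, 85.4 and 85.7% in controls. Dnmt1 was 15.9, 17.1 and 13.3% of the Dnmt family with doxycycline and 31.7, 25.2 and 45.1% in controls, and Dnmt3a was 69.8, 73.8 and 76.0% with doxycycline and 55.5, 59.8 and 33.8% in controls. Both shares separated the groups. Tet3 held 86.0 to 88.4% of the TET family with doxycycline and 85.0 to 92.9% in controls, so the TET family was mostly Tet3 in every library, and Tet1 held at most 0.056% with doxycycline and 0.546 to 1.35% in controls.

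**Figure D3:**
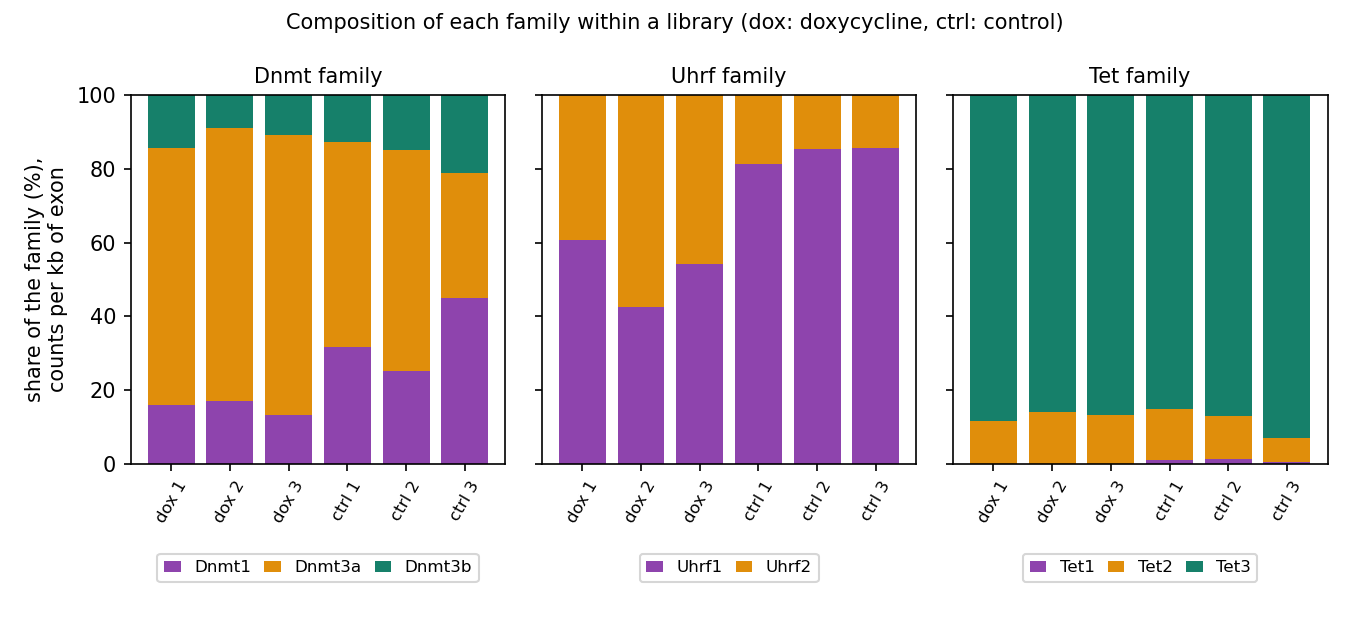
Share of each gene in its family within a library, in percent of counts per kb of exon, with the 3 doxycycline libraries left of the 3 controls. Uhrf1 gives 42.5 to 60.8% of its family with doxycycline and 81.3 to 85.7% in controls, and Tet3 gives at least 85.0% of the TET family in every library.

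Ratios of counts within a library were also tested. With 3 libraries a side, an exact permutation test cannot give a two-sided p below 0.1. Of 11 ratios, 7 separated the groups completely (exact permutation p = 0.1, adjusted to 0.157 over the 11). The log2 ratio of Uhrf1 to Uhrf2 averaged -0.87 ± 0.542 with doxycycline and 1.40 ± 0.257 in controls, a difference of -2.27. That of Dnmt1 to Dnmt3a differed by -1.70, that of Dnmt3b to Dnmt3a by -1.12 and that of Dnmt1 to Tet2 by -2.45. Control replicate 3, with its low Dnmt3a and Tet2, had the highest value in these last ratios. Without it the differences were -1.22 for Dnmt1 to Dnmt3a, -0.66 for Dnmt3b to Dnmt3a and -1.69 for Dnmt1 to Tet2, and the groups still did not overlap. The log2 ratio of Dnmt1 to Uhrf1 was higher by 0.89 with doxycycline (doxycycline -1.42 ± 0.476, control -2.31 ± 0.363). Hells to Uhrf1 differed by 0.07 (exact permutation p = 0.9), and by -0.27 without control replicate 3, with overlapping groups in both cases. Hells to Dnmt1 differed by -0.82 (exact permutation p = 0.3), and without control replicate 3 its groups no longer overlapped (difference -1.08). Tet3 to Tet2 differed by -0.36 (exact permutation p = 0.6), and by -0.0060 without that library. The ratio of Tet1 to Tet2 was not tested, since doxycycline replicate 1 had 0 Tet1 counts.

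S phase genes moved with the replication-coupled genes. The list of 24 held MCM helicase subunits, replication factors and nucleotide synthesis enzymes. Of the 23 tested, 22 fell and 0 rose, against 23.6% of all genes lower and 21.7% higher. The median log2 fold change of the list was -2.56, beside -0.08 over all genes. Without control replicate 3, 24 of these genes fell, against 35.1% of all genes lower. Their summed level was 282 to 325 CPM with doxycycline and 963 to 1361 CPM in controls. Dtl, a ubiquitin ligase adaptor active at replicating DNA, had 6.005 ± 0.198 CPM with doxycycline and 61.3 ± 12.5 CPM in controls, a log2 fold change of -3.35, and Pola1, the catalytic subunit of DNA polymerase alpha, had 2.54 ± 0.625 CPM with doxycycline and 20.8 ± 2.94 CPM in controls, a change of -3.03 (SD, n = 3 each). Fen1 changed by -2.15, Mcm4 by -2.56 and Tyms by -1.99. Gins2 was the member that did not pass (78.9 ± 1.23 CPM with doxycycline and 92.6 ± 1.68 CPM in controls, edgeR adjusted p = 0.199), named after its values were seen. Pcna, another replication gene, was counted among the cofactors and not in this list, and was not called (log2 fold change 0.02, edgeR adjusted p = 0.921).

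Set against the summed counts of this list in the same library, Dnmt1 was at a log2 ratio of -5.71 ± 0.153 with doxycycline and -5.53 ± 0.304 in controls, a difference of -0.18 with overlapping groups (exact permutation p = 0.5). Without doxycycline replicate 2 the groups did not overlap (difference -0.27). Uhrf1 was at -4.29 ± 0.327 with doxycycline and -3.22 ± 0.0636 in controls, a difference of -1.07 with no overlap of the groups (exact permutation p = 0.1, the smallest possible). Hells was at -5.24 ± 0.476 with doxycycline and -4.25 ± 0.596 in controls, a difference of -0.99. The groups were barely separated, with control replicate 3 at -4.93 next to doxycycline replicate 1 at -4.94. Without control replicate 3 the difference was -1.34 and the groups did not overlap. The summed counts weigh abundant genes most, and Gins2, not called, gave 78.9 of the 282 to 325 CPM with doxycycline. In controls it gave 92.6 of 963 to 1361 CPM. By the fitted change, Uhrf1 (-2.91), Hells (-2.81) and Dnmt1 (-2.06) stood beside a median of -2.56 for the list. Differences from the sum are thus not differences from the typical gene of the list. The part of the lower S phase transcripts in the changes of the methylation genes was not tested.

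**Figure D4:**
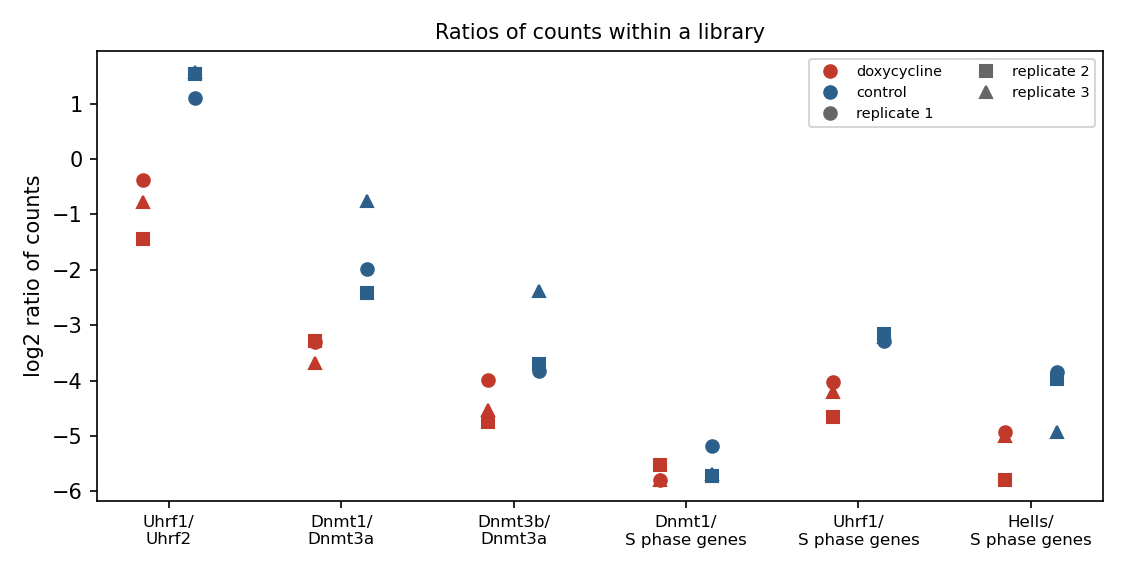
Log2 ratios of counts within each library for 3 pairs of methylation genes and for Dnmt1, Uhrf1 and Hells over the summed counts of the S phase genes; red is doxycycline, blue is control, and shapes give the replicate. Uhrf1 over Uhrf2 and Uhrf1 over the S phase sum are lower in all 3 doxycycline libraries, while Dnmt1 over the S phase sum overlaps between the groups.

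Of 10 tested cofactors and relatives of the methyltransferases, 4 were lower and 2 higher (median log2 change -0.48). Over all genes tested, 23.6% were lower and 21.7% higher. When scaled by total counts alone, 6 of the list were lower and 0 higher. Under that scaling 53.3% of all genes were called, 39.7% lower and 13.5% higher. Cdca7, the zinc finger partner that recruits HELLS to chromatin, had 9.61, 7.03 and 7.49 CPM with doxycycline, against 142.4, 144.9 and 196.3 CPM in controls, with no overlap. It changed by -4.32 on the log2 scale (SE 0.232, edgeR adjusted p = 6.26e-05), where Hells changed by -2.81. Its relative Cdca7l changed by -2.61 (7.72 ± 1.28 CPM with doxycycline and 47.1 ± 5.71 CPM in controls), and Lig1, the ligase of Okazaki fragments that also binds UHRF1, by -2.60 (0.605 ± 0.221 CPM with doxycycline and 3.73 ± 1.31 CPM in controls). Usp7, the deubiquitinase that stabilises DNMT1 and UHRF1, fell by 0.63 on the log2 scale, a call lost without doxycycline replicate 1 (adjusted p = 0.0650), 2 (0.102) or 3 (0.0914). Zbtb24, the zinc finger activator of Cdca7, rose by 0.56 (43.8 ± 2.95 CPM with doxycycline and 29.7 ± 4.52 CPM in controls) and Trdmt1, a tRNA methyltransferase related to DNMT1, by 0.81 (8.26 ± 1.72 CPM with doxycycline and 4.72 ± 1.04 CPM in controls). The Zbtb24 call was lost without control replicate 2 or any doxycycline library (adjusted p = 0.0689 to 0.120), and the Trdmt1 call without control replicate 1 or 2 or any doxycycline library (0.0551 to 0.147). Pcna, the sliding clamp to which DNMT1 binds, had 101.4 ± 8.97 CPM with doxycycline and 99.8 ± 12.2 CPM in controls (log2 fold change 0.02, adjusted p = 0.921). Dnmt3l, the germ cell cofactor of DNMT3A, had 0 counts in all libraries.

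Of 10 genes of the methyl-CpG binding protein families, 4 fell and 0 rose (median log2 change -0.47). The list goes by family name, and not every member need bind methylated CpG. Among all genes tested, 23.6% were lower and 21.7% higher. Without control replicate 3, 6 fell and 3 rose, against 35.1% of all genes lower and 34.9% higher. Mbd3, a NuRD subunit, had 27.6 ± 2.41 CPM with doxycycline and 77.9 ± 32.8 CPM in controls (log2 fold change -1.50, edgeR adjusted p = 0.00668). Mbd4, a glycosylase that removes thymine at CpG mismatches, had 3.05 ± 1.30 CPM with doxycycline and 10.8 ± 2.14 CPM in controls (-1.82, adjusted p = 0.00702). Zbtb38 (51.5 ± 8.57 CPM with doxycycline and 162.1 ± 83.3 CPM in controls, -1.65) and Mbd1 (49.5 ± 2.18 CPM with doxycycline and 69.2 ± 2.15 CPM in controls, -0.48) also fell. The Zbtb38 call was lost without control replicate 2 or any doxycycline library (adjusted p = 0.0513 to 0.0814), and the Mbd1 call without control replicate 1 or 2 or any doxycycline library (0.0747 to 0.130). Mbd2 had 67.6 ± 8.89 CPM with doxycycline and 68.7 ± 20.4 CPM in controls (adjusted p = 0.9504). Its change was -0.02 with all libraries and 0.26 without control replicate 3, where it was called higher (adjusted p = 0.0356).

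Of 18 tested base excision genes and partners of the TET enzymes, 9 fell and 1 rose (median log2 change -0.83), against 23.6% of all genes lower and 21.7% higher. Without control replicate 3, 13 fell and 2 rose, against 35.1% of all genes lower and 34.9% higher. With total counts alone 12 fell and 1 rose, against 39.7% of all genes lower and 13.5% higher. Ung, the uracil glycosylase, had 4.76 ± 0.654 CPM with doxycycline and 42.3 ± 8.84 CPM in controls (-3.15, adjusted p = 1.44e-04), and Neil3, a glycosylase of dividing cells, 0.574 ± 0.277 CPM with doxycycline and 11.3 ± 1.24 CPM in controls (-4.31). Cxxc5, a CpG-binding protein that interacts with TET2, had 2.62 ± 0.468 CPM with doxycycline and 13.6 ± 0.367 CPM in controls (-2.36, adjusted p = 3.47e-04). Parp1, the DNA break sensor, had 17.1 ± 1.24 CPM with doxycycline and 61.9 ± 22.2 CPM in controls (-1.86). The gene that rose was Gadd45a, a stress-induced gene that has been linked to active demethylation, with 60.9 ± 3.41 CPM with doxycycline and 28.6 ± 6.82 CPM in controls (1.09, adjusted p = 0.00490). Tdg, the glycosylase that excises the oxidation products of the TET enzymes, was at 6.39 ± 1.76 CPM with doxycycline and 7.75 ± 1.70 CPM in controls and did not pass (adjusted p = 0.459). Ogt, the glycosyltransferase that partners TET2 and TET3, had 212.0, 245.6 and 249.5 CPM with doxycycline, against 371.1, 330.4 and 157.5 CPM in controls. It passed without control replicate 3 only (-0.56, adjusted p = 5.88e-06; -0.28 and 0.499 with all libraries), among the 14 alternative fits.

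Of 14 tested genes of the methyl donor cycle, 5 fell and 3 rose (median log2 change -0.70). Over all genes tested, 23.6% were lower and 21.7% higher. Without control replicate 3, 10 fell and 3 rose, against 35.1% of all genes lower and 34.9% higher. With total counts alone 11 fell and 1 rose, against 39.7% of all genes lower and 13.5% higher. Shmt1, which passes one-carbon units from serine to folate, had 13.2 ± 1.34 CPM with doxycycline and 95.0 ± 9.52 CPM in controls (-2.84, adjusted p = 7.83e-05). The methionine synthase gene Mtr (3.40 ± 0.984 CPM with doxycycline and 12.5 ± 3.89 CPM in controls, -1.88) and Mtrr, its reductase (7.40 ± 0.643 CPM with doxycycline and 16.2 ± 1.15 CPM in controls, -1.13), fell as well. Cbs, which draws homocysteine out of the cycle, had 1.05 ± 1.08 CPM with doxycycline and 7.30 ± 2.59 CPM in controls (-2.71). It was not called without doxycycline replicate 1 (adjusted p = 0.0753), and the change was -4.01 without doxycycline replicate 3. Among those that rose were Ahcyl2 and Ahcyl1, which are in this list as relatives of the adenosylhomocysteinase gene Ahcy. Ahcyl2 had 1062 ± 24.5 CPM with doxycycline and 294.1 ± 125 CPM in controls (1.85). Ahcyl1 had 495.9 ± 10.3 CPM with doxycycline and 338.2 ± 55.6 CPM in controls (0.55). The Ahcyl1 call was lost without control replicate 1 or 2 or any doxycycline library (adjusted p = 0.0568 to 0.119). Mat2a, which makes the methyl donor S-adenosylmethionine, had 220.8 ± 18.6 CPM with doxycycline and 263.7 ± 29.96 CPM in controls (-0.26, adjusted p = 0.239; -0.33 and 9.93e-04 without control replicate 3). Ahcy, which clears its product, had 50.8, 49.1 and 45.5 CPM with doxycycline, against 60.8, 70.4 and 139.2 CPM in controls. The Ahcy groups did not overlap, but the change of -0.89 missed the threshold (adjusted p = 0.0574). It passed in 5 of the 14 alternative fits, which were total counts (adjusted p = 0.0121), DESeq2 (0.0295), the length trend removed (0.0408), and those without control replicate 1 (-1.11, 0.0301) or control replicate 3 (-0.42, 9.24e-04).

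**Figure D5:**
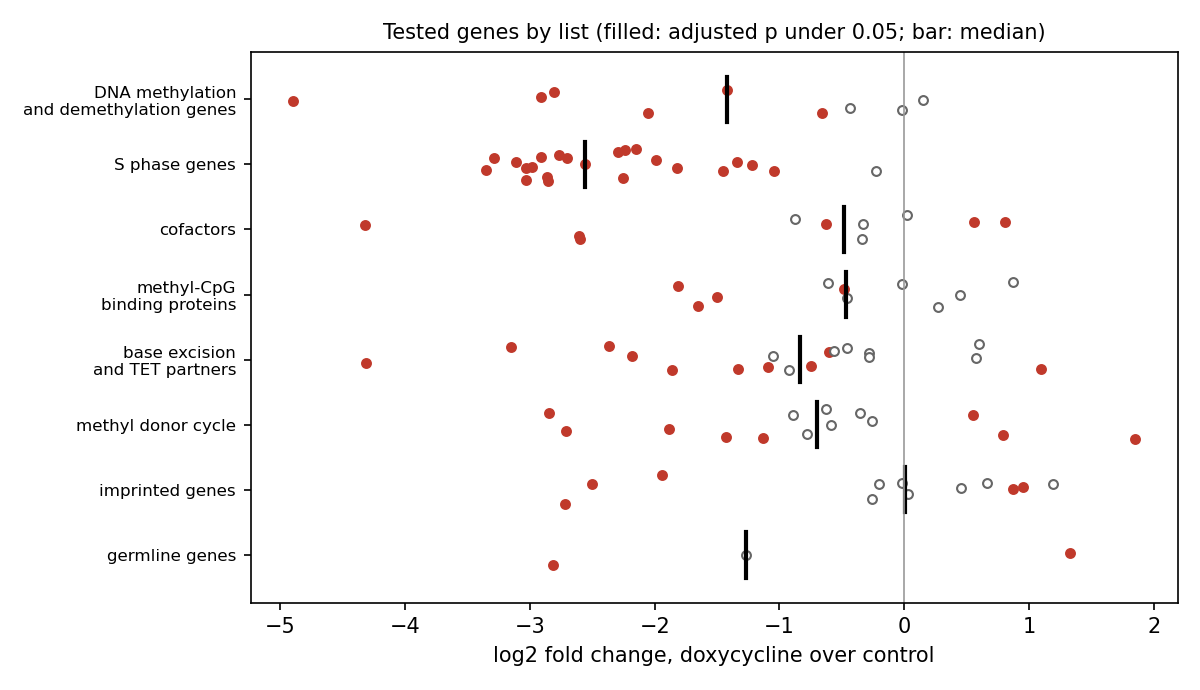
Log2 fold change, doxycycline over control, of the tested genes of each list, one point a gene, filled where the adjusted p was under 0.05, with a black bar at the list's median. The 23 S phase genes all lie below 0 with a median of -2.56, the methylation and demethylation genes have a median of -1.42, and the other lists spread to both sides of 0.

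Germline genes that are held silent by promoter methylation in somatic mouse cells were mostly undetected in both groups. Of 20 such genes, 11 had 0 counts in all 6 libraries and 3 were tested, and their summed level was 9.20 to 11.3 CPM with doxycycline and 8.31 to 11.2 CPM in controls. Sycp3, a synaptonemal complex gene, rose and had 8.21 ± 0.542 CPM with doxycycline, against 3.24 ± 0.643 CPM in controls (log2 fold change 1.33, edgeR adjusted p = 0.00468). Tdrd1 had 0.474 ± 0.335 CPM with doxycycline and 3.62 ± 1.95 CPM in controls (-2.81, adjusted p = 0.00982; -3.57 without doxycycline replicate 3), and Piwil2 had 0.884 ± 0.517 CPM with doxycycline and 2.12 ± 0.772 CPM in controls and did not pass (adjusted p = 0.0852). Of 12 tested imprinted genes, whose parental expression depends on inherited methylation, 3 fell and 2 rose (median log2 change 0.01), near the 23.6% lower and 21.7% higher of all genes. Without control replicate 3, 3 fell and 6 rose, against 35.1% of all genes lower and 34.9% higher. Plagl1 had 0.867 ± 0.437 CPM with doxycycline and 5.90 ± 1.94 CPM in controls (-2.72), while Igf2r had 175.0 ± 15.3 CPM with doxycycline and 90.3 ± 10.5 CPM in controls (0.95). Phlda2 rose by 0.87, a call lost without control replicate 1 or 2 or doxycycline replicate 1 or 2 (adjusted p = 0.0534 to 0.0788). Igf2, at 0.367 ± 0.209 CPM with doxycycline and 1.38 ± 0.468 CPM in controls, was called lower, but not without control replicate 1 or any doxycycline library (0.0510 to 0.102). Kcnq1ot1 had 3.64, 1.20 and 6.86 CPM with doxycycline, against 15.5, 8.47 and 43.7 CPM in controls; its change of -2.50 was -1.56 without control replicate 3 (adjusted p = 0.0868), -3.21 without doxycycline replicate 3, and not called without doxycycline replicate 1 (0.116) or 2 (0.0992). DNA methylation itself was not measured in these libraries.

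For each of the 9 genes the 3 most similar profiles were found as the smallest root mean square difference of centred log2 CPM over the 6 libraries, among 10300 genes. Uhrf1 was closest to Pola1 (difference 0.118), Rad51ap1 (0.121) and Barx2 (0.133). Dnmt1 was closest to Rnase4 (0.127), Smarca2 (0.131) and Slc30a2 (0.146), and Hells, less closely, to Vangl2 (0.210), Chrm3 (0.215) and Marveld1 (0.217). Dnmt3b had Pus1 (0.0898), Prmt3 (0.0900) and Alyref (0.0957) as neighbours, and Uhrf2 had Camk2n1 (0.0370), Cep83 (0.0542) and Taf11 (0.0643). Dnmt3a lay next to Creb1 (0.0363), Atrip (0.0370) and Man2a1 (0.0412), Tet3 next to Mecom (0.0328), Ccnt2 (0.0515) and Cggbp1 (0.0569), and Tet2 next to Bcor (0.0897), Epm2aip1 (0.0919) and Ncoa6 (0.117). The closest to Tet1 was Esrrg at 0.385, followed by Tnfsf10 (0.406) and Xylt1 (0.443). Candidates had a mean of at least 5 CPM, and Tet1 lay below that (0.109 CPM with doxycycline and 3.6 CPM in controls). Genes as low as Tet1 were thus not searched.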

How the data were processed

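RNA-seq counts of 6 libraries (3 with doxycycline, 3 controls) were analysed. The deposited table held whole-number counts per gene. The submitters' processing notes name mm10 as the build. Aligner, counter, annotation and use of strand are not given in the sources used here. Reads of Dnmt3a and Tet3 cannot be told from those of the overlapping lncRNAs Dnmt3aos (1 count with doxycycline, 12 in controls) and B230319C09Rik (27 with doxycycline, 39 in controls). Symbols matched 24570 of 24594 IDs in RefSeq's table (GRCm38.p6), and the other 24 were kept under their IDs. Genes passing edgeR's expression filter (12909) were tested with edgeR 4.0.16 (R 4.3.3): TMM scaling, robust quasi-likelihood F-test, Benjamini-Hochberg adjustment over all genes tested, threshold 0.05. SEs are the log2 fold change over the square root of F. Scripts were tested on simulated data. Alternatives were RLE factors, total counts, no filter, 10 counts in 3 libraries, DESeq2 1.42.0, limma-voom (limma 3.58.1), a replicate block and each library left out; removal of a length trend was added after the data were seen. That trend was taken per library against the average of the 6, so removing it can also take out group differences that go with length. The 9 genes and the lists were chosen with earlier results of these data known. Named genes were the 9, 9 further fixed genes, the (up to) 5 lowest adjusted p in every list, called members opposite to their list, and for each of the 9 the 3 most similar genes of at least 5 CPM (log2 CPM with prior count 2). Some genes that this rule names are not reported here.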

Additional observations from a re-analysis of the deposited data

How the results depend on the processing

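Of 126 refits of the 9 genes, 109 kept direction and call, 5 lost the call (all Uhrf2), 3 gained it (Dnmt3a, Tet3) and 9 changed sign (Tet2, Tet3), and of 588 refits of the other named genes these numbers were 503, 61, 12 and 12. The genes called were 5850 and ranged from 3836 to 9286 with 1 library left out, the lowest without doxycycline replicate 3 and the highest without control replicate 3; without doxycycline replicate 2 there were 3862. The 9 genes gave 5 to 8 calls. The other lists, of 121 genes with those too low to test, gave 57 calls (43 to 79). Over all genes tested the share called was 45.3%, and 29.1 to 69.9% in the alternative fits. The ratios that separated the groups were 7 (7 to 8). With 0.5 added to each count they were 6, which ended the separation of Hells over the S phase sum. With total counts, 25.4% of calls were higher against 47.9% with TMM. There 66 list genes were called, beside 53.3% of all genes tested, and Tet2 (-0.30) and Pcna (-0.42) reversed. Tet3 reversed with RLE factors (0.0078), DESeq2 (0.0078) and limma-voom (0.047), and its range with 1 library left out was -0.26 to 0.19. Mbd2 reversed with RLE factors (4.01e-04), DESeq2 (5.56e-04), limma-voom (0.0099) and the length trend removed (0.074). With 1 library left out, Mbd2 ranged from -0.16 to 0.26, Tet2 from -0.25 to 0.60 and Pcna from -0.039 to 0.141. The log2 ratio of Hells to Uhrf1 (0.07) ranged from -0.268 to 0.307 with 1 library left out, below 0 without control replicate 3. The cause was not tested. Same-numbered libraries did not deviate together (r = -0.299, 0.119 and -0.187), so the numbers were not taken to pair libraries. With the replicate number as a block, 4509 genes (34.9% of those tested), 5 of the 9 and 45 list genes were called. In that fit Uhrf2 had an edgeR adjusted p of 0.0666, and Tet3 (0.043) and Mbd2 (0.0091) changed sign. Low counts limit Tet1 and Dnmt3b most.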
